A study of Mus musculus with 16 samples.

Results

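The integrated stress response is described here through 10 genes, found by their symbols in the counts of all 16 libraries, out of 46078 genes listed. They are the kinases *Eif2ak1*, *Eif2ak2* and *Eif2ak4*, the transcription factors *Atf4*, *Atf5* and *Ddit3*, and *Trib3*, *Ppp1r15a*, *Asns* and *Ddit4*. RNA was sequenced from polychromatic (Poly-E) and orthochromatic (Ortho-E) erythroblasts, the last nucleated stages of red cell formation, sorted from steady-state mouse bone marrow by Ter119 and CD44. Wild-type mice (Ypel4+/+) were compared with mice homozygous for a mutant allele (Ypel4-/-), with 4 libraries of each genotype in each population. All 16 libraries, wild-type ones included, carry the same strain label, which names the background C57BL/6N-A<tm1Brd> and the allele Ypel4<tm1a(EUCOMM)Wtsi>. The mutant mice carry in all tissues a targeted trap allele that stops transcription of the coding exons, no treatment is named for any mouse, and neither age nor sex is given in the sources used here.

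The integrated stress response lowers protein synthesis by phosphorylating the translation factor eIF2. Separate kinases do so for separate stresses: HRI, made from *Eif2ak1*, is held inactive by heme and acts when heme is short, PKR (*Eif2ak2*) answers double-stranded RNA, GCN2 (*Eif2ak4*) answers a lack of amino acids, and PERK (*Eif2ak3*) answers misfolded protein in the endoplasmic reticulum. Red cell precursors rely on HRI to keep globin synthesis in step with heme. While most translation falls, the messenger RNA of the transcription factor ATF4 is translated better, and ATF4 then switches on genes for amino acid supply, stress regulation and, through *Ppp1r15a* (GADD34), the phosphatase that removes the phosphate from eIF2 again. Much of this circuit is set at the level of protein and phosphorylation, and only RNA was measured here.

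The libraries held 2670173 to 12451234 counts (median 4267470). Levels are given as CPM, counts scaled to the size of the library, after TMM scaling, which assumes that most genes do not change between libraries. The scaling factors were 1.449 to 1.644 in Poly-E and 0.606 to 0.726 in Ortho-E libraries. The choice of scaling therefore bears on each comparison of the populations: from Poly-E to Ortho-E the median log2 ratio of all tested genes was −0.19 in wild-type and −0.09 in mutant cells with TMM, but −1.45 and −1.48 with library totals. Differences between populations over all libraries of a genotype are therefore given on both scales. In bulk RNA, fewer cells of a type and less RNA per cell cannot be told apart, so neither scale gives molecules per cell. *Ypel4* itself stood at 577 ± 105 CPM (SD, n = 4) in wild-type and 15.9 ± 5.70 in mutant Poly-E libraries, while Ortho-E gave 4966 ± 507 against 205 ± 22.5, with no overlap of the genotypes. The 12 erythroid markers, led by *Hbb-bs*, summed to between 93612 and 195407 CPM of library total in each library. Of other cells, granulocyte genes, led by *Lyz2*, summed to at most 12.7, macrophage genes, led by *Cd68*, to at most 8.20, T cell genes, led by *Cd3d*, to at most 0.562, and megakaryocyte genes, led by *Itga2b*, to between 40.8 and 75.3. *Cd3e* and, of the megakaryocyte genes, *Gp1bb* were at 0 in every library. In wild-type Ortho-E, where *Pf4* was also at 0, *Itga2b* alone was at 55.8 to 67.7 CPM of library total.

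In wild-type cells 7 of the 10 genes were higher in Ortho-E than in Poly-E and 1 was lower with TMM scaling, beside 26.4% of all tested genes higher and 32.1% lower. Scaled by library totals, 3 were higher and 3 lower, beside 10.4% and 60.3% of all genes. *Eif2ak1*, *Ppp1r15a* and *Ddit4* were higher under both scalings, and *Eif2ak4* was lower under both. Mutant cells, which share no library with the first comparison, gave 7 higher and 0 lower with TMM, beside 29.5% and 31.5% of all genes, and 4 higher and 4 lower with library totals, beside 11.2% and 60.9%. The 4 higher under both scalings in mutant cells were *Eif2ak1*, *Ppp1r15a*, *Ddit4* and *Trib3*. No called member went opposite ways in the 2 genotypes on the same scale. The median log2 ratio of the members was 1.14 in wild-type and 1.08 in mutant cells with TMM, and −0.13 and −0.35 with library totals, each above the median of all genes given for that scale.

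**Figure D1:**
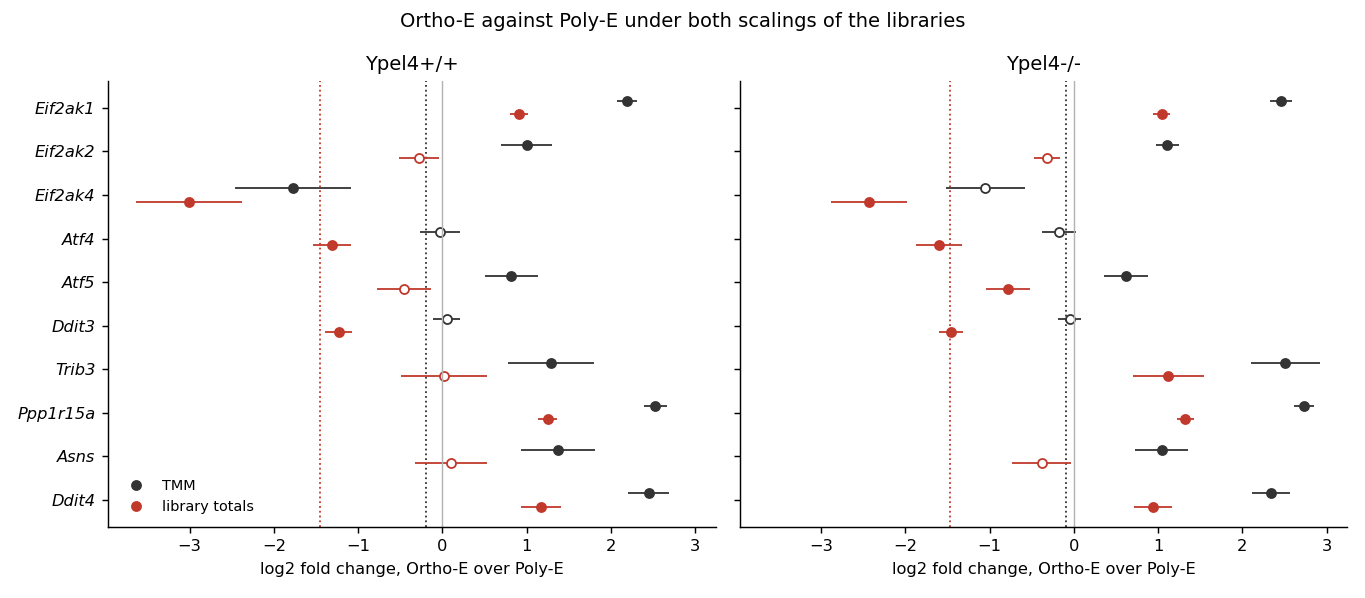
Log2 ratio of each member from Poly-E to Ortho-E in Ypel4+/+ (left) and Ypel4-/- (right) cells, with TMM scaling (black) and library totals (red). Bars are standard errors, filled points passed an adjusted p of 0.05, and dotted lines mark the median of all tested genes on each scale. *Eif2ak1*, *Ppp1r15a* and *Ddit4* lie to the right of 0 in both colours and both panels, while *Atf4* and *Ddit3* lie near the dotted lines.

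The promoters of 4 members are printed because these genes took separate courses between the populations: *Eif2ak1* and *Ppp1r15a* rose on both scales, *Atf4* did not, and *Asns* rose with TMM only. Each line gives the 250 bases before the transcription start, 5′ to 3′ on the gene's strand, from RefSeq on GRCm38.p6, in which all 10 members were matched. Capitals mark a KLF motif (CCNCNCCC) in *Eif2ak1*, a GATA motif (AGATAA or TGATAA) in *Atf4* and *Ppp1r15a*, and the composite motif of ATF4 and C/EBP factors (TGATGNAA) in *Asns*.
*Eif2ak1*, chr5:143817542-143817791, + strand: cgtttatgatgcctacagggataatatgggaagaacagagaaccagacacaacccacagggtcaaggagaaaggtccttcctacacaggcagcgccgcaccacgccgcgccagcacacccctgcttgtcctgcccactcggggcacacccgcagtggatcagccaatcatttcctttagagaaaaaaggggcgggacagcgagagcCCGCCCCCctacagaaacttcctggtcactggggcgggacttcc
*Atf4*, chr15:80254934-80255183, + strand: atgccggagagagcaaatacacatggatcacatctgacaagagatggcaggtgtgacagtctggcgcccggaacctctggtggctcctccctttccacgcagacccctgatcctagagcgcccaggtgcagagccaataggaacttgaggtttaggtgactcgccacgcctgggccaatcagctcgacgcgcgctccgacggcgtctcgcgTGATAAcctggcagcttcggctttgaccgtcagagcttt
*Ppp1r15a*, chr7:45526269-45526518, - strand: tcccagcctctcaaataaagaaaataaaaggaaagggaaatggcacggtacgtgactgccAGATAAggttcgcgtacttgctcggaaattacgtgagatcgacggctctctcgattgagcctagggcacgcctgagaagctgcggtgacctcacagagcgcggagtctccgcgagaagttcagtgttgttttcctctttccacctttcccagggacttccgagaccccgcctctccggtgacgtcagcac
*Asns*, chr6:7693210-7693459, - strand: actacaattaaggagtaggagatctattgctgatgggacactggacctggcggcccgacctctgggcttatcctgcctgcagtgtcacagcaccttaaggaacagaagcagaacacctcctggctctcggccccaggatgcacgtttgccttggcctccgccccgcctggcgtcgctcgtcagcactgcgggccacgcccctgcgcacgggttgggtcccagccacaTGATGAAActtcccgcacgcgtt
The motifs were searched on both strands in the same 250 bases of 32851 mouse promoters. Each share below counts single promoters, while a member counts if any of its promoters matched, and *Eif2ak4* and *Atf5* have 2 each. The ATF4 composite motif was found in 3.45% of all promoters and in 1 of the 10 members, *Asns*, at 23 bases before the start. A GATA motif, the recognition sequence of GATA1, was found in 16.6% of all promoters and in 2 members, *Atf4* at 39 and *Ppp1r15a* at 190 bases before the start. The KLF motif was found in 45.9% of all promoters and in 8 members. In *Eif2ak1* it was at 44 and in *Asns* at 58 bases before the start, where it is printed in lower case. A match is a run of letters and not a site shown to be bound.

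*Eif2ak1* (ENSMUSG00000029613, chromosome 5 from 143817788 to 143904251, + strand, GRCm38) was by far the most abundant of the eIF2 kinases and its share grew with maturation. *Eif2ak1* stood at 554, 433, 543 and 503 CPM in wild-type Poly-E replicates 1 to 4, and at 2140, 2103, 2357 and 2477 CPM in wild-type Ortho-E. In mutant cells the values were 381, 485, 503 and 499.5 CPM in Poly-E and 1872, 2445, 2327 and 2483 CPM in Ortho-E. Every Ortho-E library lay above every Poly-E library. The log2 ratio of Ortho-E to Poly-E, with its standard error (SE), was 2.19 ± 0.12 (SE, 4.57-fold, adjusted p = 3.46e-14) in wild-type and 2.46 ± 0.13 (SE, 5.48-fold, adjusted p = 1.01e-17) in mutant cells. With library totals the rise was 1.88-fold (adjusted p = 5.57e-08) and 2.05-fold (adjusted p = 2.21e-10), and the groups still did not overlap. Genes with at least 10 counts over the 16 libraries were ordered in each group by their mean TMM-scaled level per kilobase of exon. In this order *Eif2ak1* moved from place 384 to place 182 in wild-type and from 406 to 169 in mutant cells. Of its exon bases 11.6% are shared with *Ankrd61* and *Aimp2*, where reads were left uncounted.

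*Eif2ak2*, the double-stranded RNA sensor, was the second kinase by level. *Eif2ak2* stood at 112, 62.1, 48.2 and 61.4 CPM in wild-type Poly-E and at 182, 133, 94.6 and 141 CPM in wild-type Ortho-E libraries, where the groups overlapped. In mutant cells it stood at 74.9, 74.3, 47.1 and 51.0 CPM in Poly-E and 130, 118, 108.8 and 113 CPM in Ortho-E, without overlap. With TMM it was higher in Ortho-E by a log2 ratio of 1.00 ± 0.30 (SE, adjusted p = 0.0187) in wild-type and 1.11 ± 0.14 (SE, adjusted p = 4.43e-08) in mutant cells. This direction rests on the scaling: with library totals the values were −0.28 (adjusted p = 0.308) and −0.32 (adjusted p = 0.0684). Within each of the 8 mice the Ortho-E library was above the Poly-E library with TMM and below it with library totals.

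*Eif2ak4*, the amino acid sensor, was close to the detection limit. It had 63 counts over the 4 wild-type Poly-E and 87 over the 4 mutant Poly-E libraries, and 5 and 13 counts over the Ortho-E libraries of the same genotypes. Replicates 2 and 3 of wild-type Ortho-E had 0 counts, which allows up to 1.71 and 1.000 CPM at 3 counts each, for counting error only. The log2 ratio was −1.77 ± 0.69 (SE, adjusted p = 0.0292) in wild-type and −1.05 ± 0.47 (SE, adjusted p = 0.0531) in mutant cells with TMM, and −3.01 (adjusted p = 1.58e-04) and −2.43 (adjusted p = 1.76e-05) with library totals. The call in wild-type cells with TMM was lost without wild-type Ortho-E replicate 2, 3 or 4 or Poly-E replicate 3 or 4, with adjusted p from 0.0516 to 0.155.

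The fourth kinase, *Eif2ak3*, which is not among the 10 genes, was at 6.60 ± 1.88 CPM (SD, n = 4) in wild-type Poly-E and at 2.21 ± 1.26 in wild-type Ortho-E, a log2 ratio of −1.42 ± 0.35 (SE, adjusted p = 9.87e-04) with TMM and −2.69 (adjusted p = 7.48e-08) with library totals. In mutant cells it was at 5.80 ± 1.10 and 4.59 ± 1.66, a log2 ratio of −0.22 ± 0.28 (SE, adjusted p = 0.506), which with library totals was −1.62 (adjusted p = 2.31e-06). Summing the 4 kinases per kilobase of exon within each library, a quantity free of scaling, *Eif2ak1* made up 85.7% ± 3.87 of kinase transcripts in wild-type and 85.9% ± 3.93 in mutant Poly-E. In Ortho-E it made up 93.6% ± 1.80 and 94.3% ± 1.12, and no Ortho-E library overlapped a Poly-E library. The share of *Eif2ak2* went from 13.1% ± 3.83 to 6.34% ± 1.79 in wild-type and from 12.8% ± 3.91 to 5.48% ± 1.10 in mutant cells. *Eif2ak3* went from 1.03% to 0.0847% of kinase transcripts in wild-type cells and from 1.01% to 0.180% in mutant cells. Kinase shares were examined after the levels had been seen and are given as a description.

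**Figure D2:**
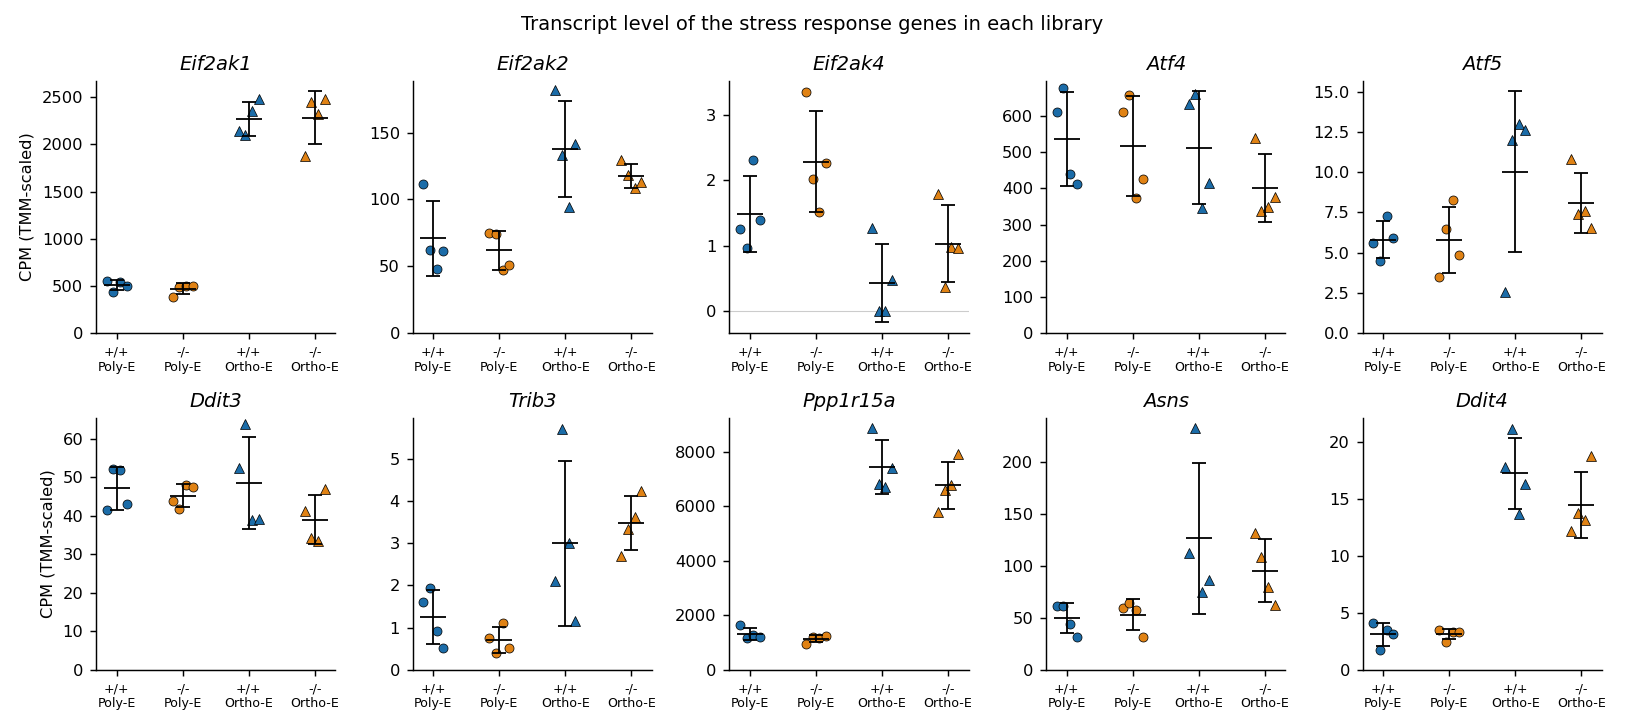
Level of each member in each library as TMM-scaled CPM, one panel a gene with its own axis. Points are libraries, circles Poly-E and triangles Ortho-E, blue Ypel4+/+ and orange Ypel4-/-, and black bars are the mean and SD of 4. *Eif2ak1*, *Ppp1r15a* and *Ddit4* separate Poly-E from Ortho-E without overlap, whereas *Atf4* and *Ddit3* overlap on this scale and are lower in Ortho-E with library totals.

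*Atf4* (ENSMUSG00000042406, chromosome 15 from 80255184 to 80257540, + strand), which encodes the central transcription factor of the response, did not follow the kinase. *Atf4* stood at 612, 678, 439.5 and 412 CPM in wild-type Poly-E and at 633, 660.1, 345 and 414 CPM in wild-type Ortho-E. In mutant cells the values were 611, 657, 373 and 425 CPM in Poly-E and 539.9, 339, 348 and 377 CPM in Ortho-E. Poly-E and Ortho-E overlapped in both genotypes. With TMM the log2 ratio was −0.03 ± 0.24 (SE, 95% interval −0.57 to 0.50, adjusted p = 0.920) in wild-type and −0.18 ± 0.20 (SE, 95% interval −0.61 to 0.25, adjusted p = 0.457) in mutant cells. As a share of the library *Atf4* was lower in Ortho-E in all 8 mice, at 808 ± 194 against 326 ± 98.1 CPM of library total in wild-type (log2 ratio −1.31, adjusted p = 4.99e-04) and 812.5 ± 223 against 268 ± 82.5 in mutant cells (log2 ratio −1.60, adjusted p = 9.03e-04). Both values lay close to the median of all genes on that scale. By level per kilobase *Atf4* went from place 80 to 239 in wild-type and from 81 to 287 in mutant cells.

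*Atf4* also differed between replicate numbers. In 3 of the 4 groups, all but mutant Ortho-E, replicates 1 and 2 were both above replicates 3 and 4. The same held for *Asns* in 4 groups and *Eif2ak2* in 3, while 7.57% of the 4835 genes with a mean of at least 10 CPM did so in at least 3 groups and 0.869% in all 4. The labels do not say what sets these replicates apart, and each comparison of populations was repeated within them. The wild-type log2 ratio of *Eif2ak1* was 2.22 in replicates 1 and 2 and 2.28 in replicates 3 and 4, and that of *Ppp1r15a* was 2.58 and 2.60. Within replicates 1 and 2 the log2 ratio of *Atf4* between populations was 0.12 in wild-type and −0.31 in mutant cells, and within replicates 3 and 4 it was −0.10 and −0.05, none of them called.

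*Ddit3*, which encodes CHOP, a factor that acts beside ATF4 in prolonged stress, did not separate the populations with TMM, either in level or in proportion to *Atf4*. *Ddit3* stood at 41.5, 52.3, 51.8 and 43.1 CPM in wild-type Poly-E and at 52.4, 64.0, 39.0 and 39.2 CPM in wild-type Ortho-E libraries. The mutant values were 43.9, 41.7, 48.02 and 47.4 CPM in Poly-E and 41.4, 34.1, 33.5 and 46.9 CPM in Ortho-E. The populations overlapped in both genotypes. The log2 ratios with TMM were 0.05 ± 0.16 (SE, adjusted p = 0.785) and −0.05 ± 0.14 (SE, adjusted p = 0.771), and with library totals −1.23 (adjusted p = 2.66e-07) and −1.46 (adjusted p = 8.35e-11). Per kilobase, *Ddit3* was 0.0924 ± 0.0235 of *Atf4* in wild-type Poly-E and 0.0975 ± 0.0125 in wild-type Ortho-E (SD, n = 4), a difference of 0.10 on the log2 scale (exact permutation test, two-sided p = 0.657). In replicates 1 and 2 alone the wild-type log2 ratio of *Ddit3* was 0.42 (edgeR, adjusted p = 0.0363), and in replicates 3 and 4 alone it was −0.22, which was not called.

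*Atf5*, which encodes a related factor linked to mitochondrial stress, was a low transcript with 6 to 110 counts per library. It was at 5.80 ± 1.17 CPM in wild-type Poly-E and 10.03 ± 5.01 in wild-type Ortho-E, where replicate 1 had 2.53 CPM from 6 counts and the others 11.99 to 13.0 CPM. The log2 ratio with TMM was 0.82 ± 0.31 (SE, adjusted p = 0.0294) in wild-type and 0.62 ± 0.26 (SE, adjusted p = 0.0402) in mutant cells, and with library totals −0.46 (adjusted p = 0.204) and −0.78 (adjusted p = 0.00945). The direction of *Atf5* thus turned with the scaling. Its call with TMM was lost without wild-type Ortho-E replicate 2, 3 or 4, with adjusted p from 0.0744 to 0.131, and that in mutant cells without Poly-E replicate 1 or 4 or Ortho-E replicate 1, 2 or 3, with adjusted p from 0.0620 to 0.157.

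The leaders of the messenger RNAs, the stretch ahead of the coding start, were read because small upstream reading frames are known to govern the translation of *Atf4* and some of its partners. In the principal transcript of GENCODE M21, *Ppp1r15a* had 7 ATG triplets ahead of its start codon, *Atf4* had 3, and *Atf5* and *Ddit3* had 2 each. *Eif2ak2* and *Asns* had 1 each and the other 4 members had 0. At least 2 upstream ATG triplets were found in 4 of the 10 members and in 32.0% of 21581 genes. Of these 4 genes *Ppp1r15a* was higher in Ortho-E under both scalings, *Atf5* turned with the scaling, and *Atf4* and *Ddit3* were called lower with library totals only.

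*Ppp1r15a* (ENSMUSG00000040435, chromosome 7 from 45522916 to 45526268, − strand), which encodes the stress-induced subunit that brings a phosphatase to eIF2, had the highest mean level per kilobase of the members in every group, though its libraries overlapped those of *Atf4* in mutant Poly-E. *Ppp1r15a* stood at 1658, 1176, 1263 and 1183 CPM in wild-type Poly-E and at 8849, 6798, 6691 and 7410 CPM in wild-type Ortho-E. In mutant cells it stood at 954, 1197, 1182 and 1225 CPM in Poly-E and at 5801, 6593, 6758 and 7909 CPM in Ortho-E. The lowest Ortho-E library was far above the highest Poly-E library. The log2 ratio with TMM was 2.53 ± 0.14 (SE, 5.77-fold, adjusted p = 2.13e-14) in wild-type and 2.73 ± 0.12 (SE, 6.66-fold, adjusted p = 2.02e-19) in mutant cells. With library totals it rose 2.37-fold (adjusted p = 3.30e-10) and 2.50-fold (adjusted p = 2.23e-13). It took 0.199% ± 0.0278 of all counts in wild-type Poly-E and 0.472% ± 0.0436 in wild-type Ortho-E (SD, n = 4). By level per kilobase it went from place 49 to place 25 of the genes ordered in wild-type and from 57 to 25 in mutant cells. Within single mice the log2 ratio of Ortho-E to Poly-E lay between 2.40 and 2.69 with TMM in all 8.

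Ratios taken within a library set these members against each other without any scaling. They were chosen after the levels had been seen and are per kilobase of exon. *Ppp1r15a* per *Atf4* transcript was 1.495 ± 0.322 in wild-type Poly-E and 9.04 ± 2.40 in wild-type Ortho-E (SD, n = 4), a 5.99-fold difference without overlap (p = 0.029 in a two-sided exact permutation test, which cannot go lower with 4 libraries against 4). In mutant cells the ratio went from 1.385 ± 0.462 to 10.4 ± 2.74, 7.57-fold (exact permutation test, p = 0.029). *Eif2ak1* per *Atf4* went from 0.304 ± 0.0868 to 1.47 ± 0.559 in wild-type and from 0.296 ± 0.105 to 1.82 ± 0.518 in mutant cells, also without overlap. Thus *Atf4* outnumbered *Eif2ak1* in every Poly-E library, whereas in Ortho-E the ratio ran from 0.969 to 2.20. *Ppp1r15a* per *Eif2ak1* went from 5.01 ± 0.613 to 6.37 ± 1.12 in wild-type, where the groups overlapped (exact permutation test, p = 0.057), and from 4.71 ± 0.127 to 5.74 ± 0.420 in mutant cells, where they did not (exact permutation test, p = 0.029).

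**Figure D3:**
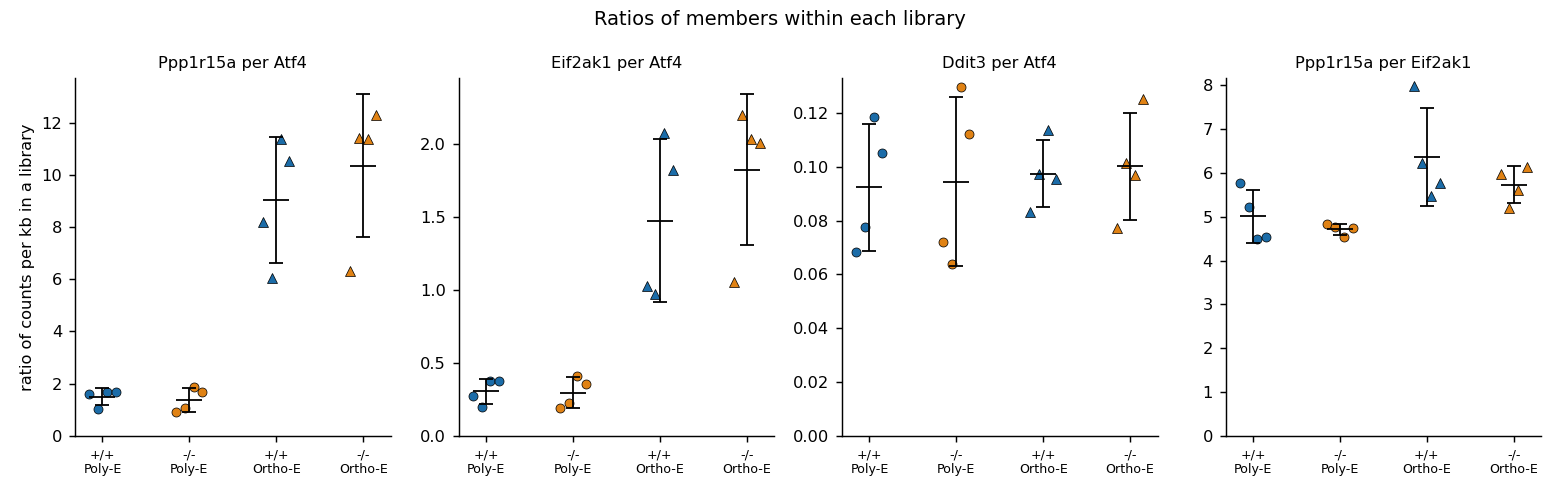
Ratios of counts per kilobase between members within each library, with linear axes that start at 0. Points are libraries, circles Poly-E and triangles Ortho-E, blue Ypel4+/+ and orange Ypel4-/-, and black bars are the mean and SD of 4. *Ppp1r15a* and *Eif2ak1* per *Atf4* are higher in each Ortho-E library than in any Poly-E library, while *Ddit3* per *Atf4* overlaps in all groups.

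*Ddit4*, which encodes REDD1, an inhibitor of mTORC1, rose on both scales from a low level. *Ddit4* stood at 4.13, 1.74, 3.44 and 3.13 CPM in wild-type Poly-E and at 17.7, 21.1, 13.7 and 16.3 CPM in wild-type Ortho-E, from 9 to 70 counts per library. In mutant cells it stood at 3.502, 2.43, 3.31 and 3.29 CPM in Poly-E and 12.15, 13.7, 13.15 and 18.7 CPM in Ortho-E. No Poly-E library reached the lowest Ortho-E library. The log2 ratio with TMM was 2.45 ± 0.24 (SE, adjusted p = 9.56e-10) in wild-type and 2.34 ± 0.22 (SE, adjusted p = 3.15e-11) in mutant cells, and with library totals 1.17 (adjusted p = 1.46e-04) and 0.94 (adjusted p = 4.65e-04).

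*Asns*, the asparagine synthetase and the member with an ATF4 composite motif in the printed promoter, was higher in Ortho-E with TMM only. *Asns* stood at 61.4, 61.2, 44.1 and 31.6 CPM in wild-type Poly-E and at 112, 232, 74.3 and 86.3 CPM in wild-type Ortho-E libraries. In mutant cells it stood at 59.2, 64.4, 57.0 and 31.6 CPM in Poly-E and 132, 108, 79.2 and 62.5 CPM in Ortho-E. The groups did not overlap in wild-type and overlapped in mutant cells. The log2 ratio with TMM was 1.37 ± 0.44 (SE, adjusted p = 0.0334) and 1.04 ± 0.31 (SE, adjusted p = 0.0181), and with library totals 0.10 (adjusted p = 0.849) and −0.38 (adjusted p = 0.355). The first of these calls was lost without wild-type Ortho-E replicate 1 or without wild-type Poly-E replicate 3 or 4, with adjusted p from 0.0602 to 0.0688, and without a filter on low counts (0.0632). The mutant call was lost in a fit of all 16 libraries (0.85, edgeR, adjusted p = 0.0837). With the replicate block both calls stood, at log2 ratios of 1.29 in wild-type and 1.01 in mutant cells. Within a mouse the Ortho-E library was above the Poly-E library in all 8 mice with TMM, and in 2 with library totals.

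*Trib3*, which encodes a pseudokinase that restrains ATF4, was counted 2 to 22 times per library. *Trib3* was at 1.25 ± 0.643 CPM in wild-type and 0.696 ± 0.310 in mutant Poly-E libraries, while Ortho-E gave 3.00 ± 1.96 and 3.47 ± 0.641. With TMM it rose by a log2 ratio of 1.29 ± 0.51 (SE, adjusted p = 0.0322) in wild-type and 2.51 ± 0.41 (SE, adjusted p = 2.75e-06) in mutant cells. The difference between these changes was not called (interaction 1.12 ± 0.65 SE, unadjusted p = 0.0932, adjusted p = 1.000). With library totals the value was 0.02 (adjusted p = 0.970) in wild-type and 1.12 (adjusted p = 0.0178) in mutant cells. The call in wild-type cells was lost without Ortho-E replicate 2 or 3 or Poly-E replicate 3 or 4 of that genotype, with adjusted p from 0.0621 to 0.177.

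Ordered by level per kilobase in wild-type Poly-E, the members ran *Ppp1r15a*, *Atf4*, *Eif2ak1*, *Ddit3*, *Asns*, *Eif2ak2*, *Atf5*, *Ddit4*, *Trib3* and *Eif2ak4*, from 449 ± 77.9 to 0.199 ± 0.0782 CPM per kilobase. Neighbours whose libraries overlapped were *Asns* and *Eif2ak2*, *Atf5* and *Ddit4*, and *Trib3* and *Eif2ak4*. In wild-type Ortho-E the order was *Ppp1r15a*, *Eif2ak1*, *Atf4*, *Asns*, *Ddit3*, *Eif2ak2*, *Ddit4*, *Atf5*, *Trib3* and *Eif2ak4*, from 2532 ± 338 to 0.0581 ± 0.0802. *Eif2ak1* and *Atf4* overlapped there, as did *Asns* with *Ddit3*, *Ddit3* with *Eif2ak2*, and *Atf5* with *Trib3*. *Ddit4* passed *Atf5*, and *Eif2ak1* passed *Atf4*, in Ortho-E of both genotypes.

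Loss of *Ypel4* did not move any of the 10 genes past the threshold. Of the members 0 were called in Poly-E, beside 0.00807% of all genes (*Ypel4* alone, while the replicate block called 4 genes, without *Ypel4* and without a member), 0 in Ortho-E, beside 0.0285%, and 0 for the interaction of genotype and population, beside 0%. DESeq2 called none of the members either, and in edgeR none had an unadjusted p under 0.05. Of all tested genes, 271 of 12395 in Poly-E, 387 of 10521 in Ortho-E and 363 of 13318 for the interaction did. The members therefore do not stand apart from other genes in this count. The log2 ratios ran from −0.71 to 0.52 in Poly-E and from −0.36 to 1.13 in Ortho-E, and the largest absolute values were those of *Trib3* and *Eif2ak4*, which have the fewest counts. For the abundant members the intervals were narrow. *Eif2ak1* differed by −0.12 in Poly-E (95% interval −0.36 to 0.12) and by 0.03 in Ortho-E (−0.16 to 0.22), and *Ppp1r15a* by −0.21 (−0.46 to 0.04) and −0.12 (−0.32 to 0.07). *Atf4* differed by −0.05 (−0.54 to 0.44) and −0.33 (−1.04 to 0.38), which leaves room for a moderate change that these libraries could not show. For all 10 members the libraries of the genotypes overlapped in both populations.

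**Figure D4:**
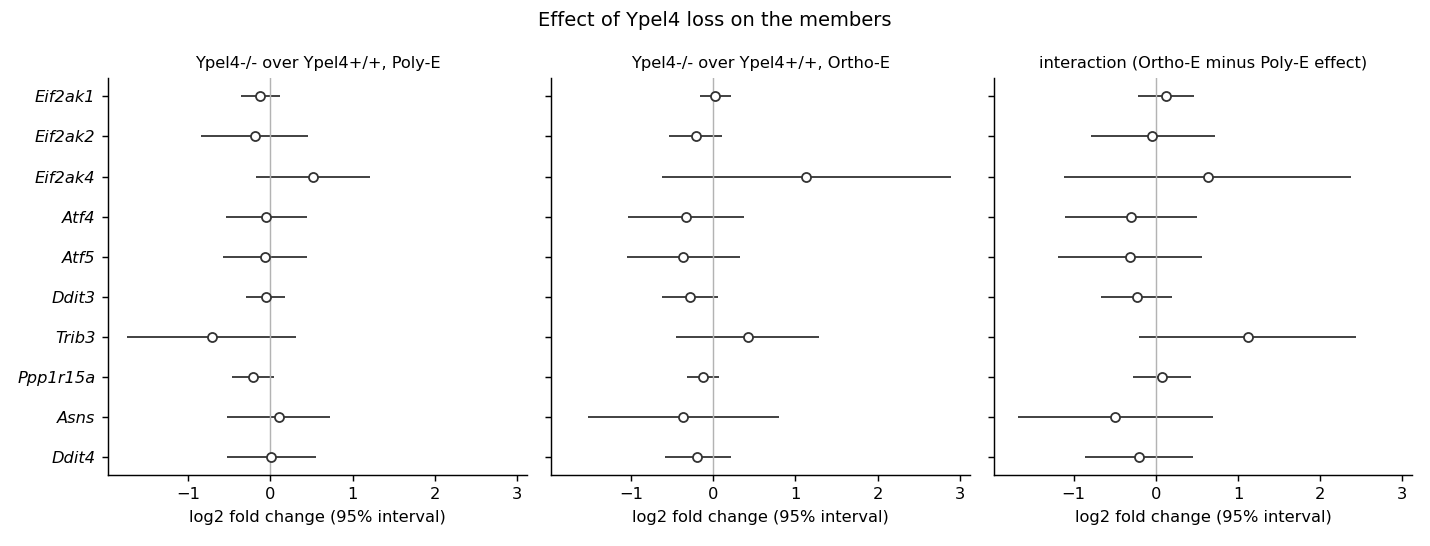
Log2 ratio of each member between Ypel4-/- and Ypel4+/+ cells in Poly-E (left) and Ortho-E (middle) and their difference (right), with 95% intervals from edgeR. Open points did not pass an adjusted p of 0.05, and each interval includes 0. Intervals are narrow for *Eif2ak1* and *Ppp1r15a* and wider for *Eif2ak4*, *Trib3* and *Asns*.

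*Eif2ak3*, outside the list, had an unadjusted p of 0.0213 in Ortho-E, where it was at 4.59 ± 1.66 CPM in mutant against 2.21 ± 1.26 in wild-type cells (log2 ratio 0.97 ± 0.40 SE, adjusted p = 0.995). The genotypes overlapped and the difference was not called. The 7 lists of other pathway genes hold 94 genes, *Eif2ak3* among them. EdgeR called 0 of the 82 tested between genotypes in Poly-E, 0 of 79 in Ortho-E and 0 of 84 for the interaction. At most 2 genes of any list had an unadjusted p under 0.05, beside the counts over all genes given above.

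Between populations 80 of these genes were tested in each genotype. Their counts stand beside the shares over all genes, which were 26.4% higher and 32.1% lower in wild-type and 29.5% and 31.5% in mutant cells with TMM, and 10.4% and 60.3%, and 11.2% and 60.9%, with library totals. Of 14 genes of eIF2, its exchange factor eIF2B and the eIF2 phosphatase, 3 were higher and 10 lower in Ortho-E in each genotype with TMM, with a median log2 ratio of −1.15 in wild-type and −0.95 in mutant cells. With library totals 1 was higher and 12 lower in each genotype. The rise on both scales was *Ppp1cb*, a catalytic subunit of protein phosphatase 1, the enzyme that GADD34 directs to eIF2. *Ppp1cb* went from 782 ± 91.8 to 4957 ± 1042 CPM in wild-type (log2 ratio 2.70 ± 0.15 SE, adjusted p = 2.08e-14; 1.42 with library totals) and rose by 3.00 ± 0.21 (SE, adjusted p = 3.90e-08, and 1.58 with library totals) in mutant cells. Its relatives *Ppp1ca* and *Ppp1cc* fell, with log2 ratios of −1.93 (adjusted p = 1.62e-12) and −1.60 (adjusted p = 1.24e-10) in wild-type, and −3.21 and −2.88 with library totals. *Ppp1r15b*, the constitutive counterpart of *Ppp1r15a*, had a log2 ratio of −0.29 (adjusted p = 0.0424), and −1.57 with library totals. These 3 genes were named after their values were seen. The largest fall in wild-type cells was that of the adaptor *Nck1* (−2.15 ± 0.48 SE, adjusted p = 4.01e-04, and −3.41 with library totals). *Nck1* was a low transcript there, at 3.53 ± 1.13 CPM in Poly-E and 0.824 ± 0.597 in Ortho-E. In mutant cells its log2 ratio was −1.24 ± 0.41 (SE, adjusted p = 0.00996, and −2.62 with library totals).

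Among regulators of the kinases, 10 of 11 were tested, 2 were higher and 6 lower in each genotype with TMM, and 1 was higher and 8 lower with library totals. *Gcn1*, the activator of GCN2, rose from 21.2 ± 3.801 to 66.5 ± 14.9 CPM in wild-type (log2 ratio 1.68 ± 0.16 SE, adjusted p = 1.18e-09; 0.39 with library totals, also called). *Dele1*, the mitochondrial protein that activates HRI, fell from 31.9 ± 2.12 to 8.82 ± 1.80 CPM (−1.77 ± 0.18 SE, adjusted p = 2.51e-09; −3.06 with library totals). The mutant values were 1.81 and −1.42 with TMM and 0.40 and −2.83 with library totals, all called. *Gcn1* thus rose beside a low *Eif2ak4*, and *Dele1* fell where *Eif2ak1* rose.

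The other ATF4 targets were split. Of 30 genes 17 were tested, and 7 were higher and 5 lower in wild-type, 6 and 5 in mutant cells with TMM, and 2 higher and 12 lower in each genotype with library totals. Their median of −0.05 in wild-type and −0.04 in mutant cells lay close to that of all genes. *Herpud1*, an endoplasmic reticulum protein, rose most in wild-type cells (2.22 ± 0.19 SE, adjusted p = 8.45e-09, and 0.94 with library totals). *Slc7a1*, a transporter of cationic amino acids, fell most in wild-type cells, from 142 ± 12.8 to 35.3 ± 5.18 CPM (−1.96 ± 0.14 SE, adjusted p = 1.81e-12, and −3.25 with library totals).

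Genes of the other arms of endoplasmic reticulum stress numbered 6 higher and 4 lower of 12 in each genotype with TMM, and 2 higher and 5 lower with library totals. Their median log2 ratio was near that of the members, at 1.15 in wild-type and 1.13 in mutant cells with TMM, and −0.12 and −0.26 with library totals. In wild-type cells the sensor *Ern1* rose most (2.27 ± 0.16 SE, adjusted p = 2.43e-12, and 0.98 with library totals) and *Creld2* fell most (−1.82 ± 0.30 SE, adjusted p = 1.11e-05, and −3.10 with library totals). Of 5 mitochondrial stress proteins 4 were lower and 0 higher in each genotype with TMM. The largest fall in wild-type cells was that of the protease *Lonp1* (−2.39 ± 0.29 SE, adjusted p = 4.51e-08, and −3.67 with library totals). With library totals 4 were lower in wild-type and 5 in mutant cells. Of 11 genes of mTORC1 and its regulators 3 were higher and 5 lower in wild-type and 4 and 4 in mutant cells with TMM, and 3 and 6 in each genotype with library totals. In wild-type cells *Akt1s1*, which encodes an inhibitor of mTORC1, rose from 10.2 ± 0.927 to 59.5 ± 8.45 CPM (2.59 ± 0.16 SE, adjusted p = 9.81e-14, and 1.31 with library totals). There *Rheb*, the activator of mTORC1, fell from 56.3 ± 6.01 to 17.7 ± 5.35 CPM (−1.59 ± 0.17 SE, adjusted p = 8.40e-09, and −2.88 with library totals). *Ddit4*, another inhibitor, rose beside *Akt1s1*.

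Immediate early genes, which are induced by many stimuli including handling of cells, were listed because *Ppp1r15a* can answer the same stimuli. Of 11 genes 7 were higher and 1 lower in wild-type and 8 and 1 in mutant cells with TMM, but 1 and 2, and 2 and 4, with library totals. Their median log2 ratio was also near that of the members, at 1.13 in wild-type and 1.28 in mutant cells with TMM, and −0.16 and −0.12 with library totals. In wild-type cells *Ier3* rose most (1.82 ± 0.44 SE, adjusted p = 8.78e-04, and 0.54 with library totals, not called) and *Dusp1* fell most (−0.97 ± 0.16 SE, adjusted p = 1.34e-05, and −2.26 with library totals). Their summed level was 786.5 to 901 CPM of library total in wild-type Poly-E and 909 to 985 in wild-type Ortho-E, without overlap, and 709 to 881 and 809 to 984 in the mutant populations, which overlapped. Most of each sum was *Btg2*, the most abundant. *Btg2* alone was at 599 to 711 in wild-type Poly-E and 839 to 905.5 in wild-type Ortho-E. In mutant cells *Btg2* was at 534.7 to 734.7 and 738.5 to 911.4. Their part in the level of *Ppp1r15a* was not tested.

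**Figure D5:**
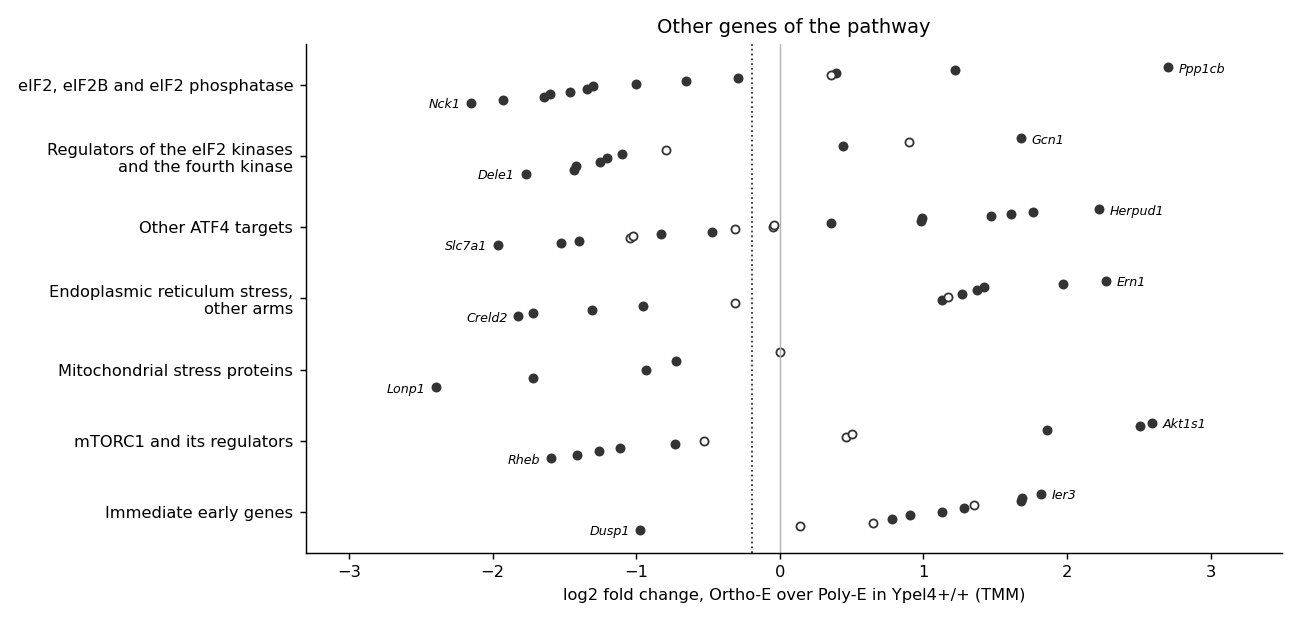
Log2 ratio from Poly-E to Ortho-E in Ypel4+/+ cells with TMM for the tested genes of the 7 lists, 1 row a list. Filled points passed an adjusted p of 0.05, the dotted line is the median of all genes, and the called genes at each end are named. Genes of eIF2, eIF2B and the phosphatase lie mostly to the left, with *Ppp1cb* at the far right, and with library totals most genes shift to the left.

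The genes whose level followed *Eif2ak1* most closely over the 16 libraries were *Fam220a*, *Cdr2*, *Fam134c*, *Sowaha* and *Psme3*, each with a Pearson correlation of 0.999 of log2 CPM. Of 4829 genes compared, 1452 had a correlation over 0.9, since the libraries fall into the 2 populations and any gene that rises from Poly-E to Ortho-E correlates. For *Atf4* the closest were *H3f3a* (0.981), *Ndufa11* (0.977), *Hnrnpa1* (0.964), *Gm11808* (0.958) and *Cox7a2l* (0.951), and 16 genes had a correlation over 0.9. All points share TMM scaling, and libraries of the same mouse are not independent.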

How the data were processed

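RNA sequencing of 16 sorted erythroblast libraries was used, 4 in each of 4 groups taken from the sample titles. The authors made unstranded libraries, mapped the reads to GRCm38 with nf-core/rnaseq and counted them on genes with featureCounts 1.6.4. What was deposited are raw counts, without normalization, from which reads on several genes were left out. Members and gene lists were chosen with earlier results of these data known.

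Counts were tested in R 4.3.3 with the robust quasi-likelihood test of edgeR 4.0.16 (TMM, genes with a summed count of 10 or more in the fit, Benjamini-Hochberg adjustment over all genes tested, threshold 0.05). The fits compared genotypes within each population, populations within each genotype (8 libraries each), and their interaction (16 libraries). Levels are TMM-scaled CPM over all 16 libraries, per kilobase of the exon length in the deposited counts where genes are compared. Single values were compared by an exact permutation test over all 70 splits of log2 values. The titles number the replicates of each genotype, and p-values measure the spread between these libraries. The main fits hold no term for replicate or mouse, so the Poly-E and Ortho-E libraries of a mouse enter as independent.

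Alternatives were DESeq2 1.42.0, its size factors in edgeR, library totals without TMM, filterByExpr, no filter beyond 1 count, globin genes left out, each library left out, all 16 libraries in 1 fit, replicate pairs alone, a term for replicates 1 and 2 against 3 and 4, and a replicate block.

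Pairing was checked over 4835 genes from deviations from group means. The Poly-E and Ortho-E libraries of a replicate share a further number in the deposited names, read here as the mouse, and their correlations ran from 0.487 to 0.651 in wild-type and from 0.086 to 0.565 in mutant cells. Of the 8 libraries of a genotype, 8 in wild-type and 7 in mutant cells correlated best with the other library of their own mouse. The main fits of populations leave this pairing out, and the replicate block takes it in. Same-numbered libraries of the genotypes correlated from 0.233 to 0.642 in Poly-E, where differently numbered ones reached 0.601. In Ortho-E the values were −0.135 to 0.339, and up to 0.321 for differently numbered ones. Of 8 libraries, 3 in Poly-E and 4 in Ortho-E correlated best with their own number. The numbers were therefore not shown to pair the genotypes.

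The tests were tried on simulated counts with 200 changed genes. Between genotypes, edgeR recovered 94.1% (Poly-E, 12075 genes) and 94.4% (Ortho-E, 10169 genes) of 2-fold changes where the mean reached 50 counts, and 17% and 15% below that. For the interaction (12964 genes) it recovered 57.1% and 3.9%. Between populations the values were 100% and 11.9% in wild-type, and 91.2% and 17.5% in mutant cells. Unchanged genes made up 5.1% of the calls between genotypes in Poly-E, 7% in Ortho-E and 5.8% for the interaction. Between populations they made up 9.3% of the calls in wild-type and 4.2% in mutant cells, so some of these shares lay above the threshold.

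Named genes were the members, *Ypel4*, *Eif2ak3*, the called gene of each list with the largest rise and fall in wild-type cells, the 5 genes most like *Eif2ak1* and *Atf4*, and the most abundant gene of each marker list. The result of 1 marker list is not reported here. Promoters are from RefSeq, and leaders from GENCODE M21.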

Additional observations from a re-analysis of the deposited data

Results flagged for a closer look

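A library stood apart from the other 3 of its group in 3 of the 48 groups of 4 looked at (10 members, *Eif2ak3* and *Ypel4*, in 4 groups each), by the gap to its neighbour over the range of the group. Chance alone flags about 1 in 20 such groups. *Eif2ak1* was at 381 CPM in Ypel4-/- Poly-E replicate 1, where the others were at 485 to 503. *Ppp1r15a* was at 954 CPM in the same library, where the others were at 1182 to 1225. *Atf5* was at 2.53 CPM in Ypel4+/+ Ortho-E replicate 1, from 6 counts, where the others were at 11.99 to 13.0.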

How the results depend on the processing

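Members gave 0 calls between genotypes and for the interaction under every alternative that tested them, including each library left out. With filterByExpr, 9 of the 10 members were tested in Poly-E, 8 in Ortho-E and 9 for the interaction. Of the log2 ratios of members recomputed under alternatives, 835 kept their direction and side of the threshold and 45 changed sign. Across all of these log2 ratios 37 lost a call and 11 gained one, sign changes included. *Eif2ak1*, *Ppp1r15a* and *Ddit4* stayed higher in Ortho-E in both genotypes under all of them.

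Of all genes, 1 was called between genotypes in Poly-E, against 2 with DESeq2, 4 without a filter beyond 1 count, 3 in a fit of all 16 libraries, 4 with the replicate block and 3 with a term for replicates 1 and 2. The 1 gene was *Ypel4*, which is not among the 4 called with the replicate block, where its log2 ratio was −5.19 (edgeR, adjusted p = 0.284). In Ortho-E 3 were called, against 4 with DESeq2, 4 with a term for replicates 1 and 2, 5 without a filter and 13 with the replicate block. The numbers were not shown to pair the genotypes in either population. For the interaction 0 were called, against 1 with DESeq2 and 1 with the mouse as replicate block. The replicate block changed no call of a member.

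Between populations in Ypel4+/+ cells 8 members were called, against 4 in replicates 1 and 2 alone. Members called higher numbered 7, against 3 with library totals and 4 in replicates 1 and 2 alone. These 4 included *Ddit3*, which is not among the 7. Members called lower numbered 1, *Eif2ak4*, and 3 with library totals. None was called lower with DESeq2, with filterByExpr, which tested 8 of the members, or in replicates 1 and 2 alone. In Ypel4-/- cells the 7 called higher became 4 with library totals and 5 in the fit of all 16 libraries, where *Atf5* (edgeR, adjusted p = 0.209) and *Asns* (0.0837) lost their calls, and the 0 called lower became 4 with library totals and 1 in the fit of all 16 libraries, *Eif2ak4*.

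In 39 of the 45 sign changes neither value was called. The other 6 came with library totals and were called on at least 1 scale. With library totals the log2 ratio of Ortho-E to Poly-E was −0.28 for *Eif2ak2*, −0.46 for *Atf5* and −1.23 for *Ddit3* in Ypel4+/+ cells, and −0.32 for *Eif2ak2*, −0.78 for *Atf5* and −0.38 for *Asns* in Ypel4-/- cells. In Ypel4+/+ cells *Atf4* was 0.11 with DESeq2 and with its size factors, 0.16 with filterByExpr and 0.12 in replicates 1 and 2 alone, and *Ddit3* was −0.22 in replicates 3 and 4 alone. *Ddit3* in Ypel4-/- cells was 0.09 with filterByExpr and 0.03 in replicates 1 and 2 alone. Between genotypes *Atf4* in Poly-E was 0.01 with library totals, and the interaction of *Eif2ak2* was 0.00 with DESeq2. The cause was not tested.

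With each library left out in turn, all genes called ranged from 1 to 2 in Poly-E, from 3 to 4 in Ortho-E and from 0 to 1 for the interaction. Between populations members called ranged from 5 to 8 in Ypel4+/+ (5 to 7 higher, 0 to 1 lower) and from 6 to 8 in Ypel4-/- cells (6 to 7 higher, 0 to 2 lower), and *Atf4* in Ypel4-/- cells was called at −0.42 (edgeR, adjusted p = 0.0367) without Ortho-E replicate 1. Log2 ratios that changed sign ranged from −0.17 to 0.21 for *Atf4* and −0.08 to 0.23 for *Ddit3* between populations in Ypel4+/+ and −0.18 to 0.02 for *Ddit3* in Ypel4-/- cells. Between genotypes in Poly-E they ranged from −0.35 to 0.11 for *Eif2ak2*, −0.18 to 0.09 for *Atf4*, −0.28 to 0.08 for *Atf5*, −0.07 to 0.30 for *Asns* and −0.13 to 0.12 for *Ddit4*, in Ortho-E from −0.03 to 0.09 for *Eif2ak1* and −0.58 to 0.11 for *Asns*, and for the interaction from −0.25 to 0.18 for *Eif2ak2* and −0.01 to 0.21 for *Ppp1r15a*.

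Of the 5 genes most like *Eif2ak1*, 2 were also named by Spearman correlation, and 3 of those most like *Atf4*. Depth limits *Eif2ak4*, *Trib3*, *Ddit4* and *Atf5*, each with under 50 counts in most libraries.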
